A study of Mus musculus with 6 samples.

Results

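The genes described here encode the proteasome, the cylinder-shaped protease that degrades ubiquitin-tagged proteins, together with its activators, its inhibitor and its assembly factors. Members were all rows of the deposited table whose symbol begins with Psm, continues with a letter from a to g and a number, and ends there or with 1 further letter. This rule found 49 genes, and 48 of them were among the 16190 genes of the table that passed a filter on low counts. RNA had been sequenced from mesenchymal stromal cells of the bone marrow, by the labels, of C57BL/6 mice, in 3 libraries of Hes1 knockout (Hes1 KO) mice and 3 of wild-type (WT) mice. In the knockout, a floxed Hes1 allele was combined with Prx1Cre, a transgene whose promoter makes Cre recombinase in early limb bud and some craniofacial mesenchyme. The protocols speak of heterozygous floxed mice for all samples, so it is unclear how many alleles were deleted. No source used here gives the animals' ages, the Cre status of WT mice or whether the libraries were from different animals. The p-values therefore measure the spread between these libraries, which may be technical. Hes1 is a transcriptional repressor downstream of Notch.

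In the proteasome, a barrel of alpha and beta rings (the core) holds the proteolytic sites, and a cap of ATPases and other subunits binds, unfolds and feeds in the substrate. The sites lie on Psmb5, Psmb6 and Psmb7, which cut after hydrophobic, acidic and basic residues. In blood cells and under interferon gamma they are replaced by Psmb8, Psmb9 and Psmb10, respectively, which form the immunoproteasome and favour peptides that fit class I molecules. The PA28 activator of Psme1 and Psme2 is also induced by interferon gamma, while Psme3 and Psme4 encode nuclear activators.

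WT replicate 1 held 66167 counts and was kept apart, against 5812598 in WT replicate 2, 12109170 in WT replicate 3 and 20563116 to 22131465 in Hes1 KO. Its members summed to 170 counts, 23 of the 49 members were at 0, and 43 had fewer than 10 counts. The comparison below thus set 3 Hes1 KO libraries against WT replicates 2 and 3 (the 5-library fit), and the fit of all 6 libraries is given beside it. Hes1 itself was at 6.63, 9.87 and 10.02 normalised CPM in Hes1 KO and at 39.2 and 64.1 in WT replicates 2 and 3, and WT replicate 1 had 0 counts of it. Normalised CPM are counts scaled to a common library size after TMM scaling, which corrects library size for a few very abundant genes. Markers of the labelled cell type, stromal cells, took little of the counts, with 0.0142% to 0.0288% of counts in Hes1 KO against 0.0188% and 0.00585% in WT replicates 2 and 3. Of those 13 markers, led by Runx2 and Cxcl12, Prrx1, Col3a1, Pdgfra, Lum and Dcn were at 0 in at least 1 of the 5 libraries. The others had counts in all 5. For 2 of the 13 every Hes1 KO library was above both WT libraries. Neutrophil markers (14, led by S100a9 and S100a8) took 4.88% to 13.3% of counts in Hes1 KO against 1.53% and 0.0363% in those WT libraries. Macrophage and monocyte markers (14, led by Lyz2 and Mpeg1) took 1.23% to 2.22% and 0.250% and 0.0215%. In normalised CPM the groups did not overlap for 13 of 14 neutrophil and 12 of 14 macrophage markers, all higher in Hes1 KO. Of the latter C1qb and C1qc were at 0 in some library. Of all genes tested, 31.2% were above both WT libraries in every Hes1 KO library and 24.5% below both. B cell markers (10, led by Ighm and Ebf1) took 0.171% to 0.282% in Hes1 KO against 0.715% and 0.401% in WT. Of these, 6 were below both WT libraries in every Hes1 KO library. T and NK cell markers (10, led by Nkg7 and Gzma) took at most 0.00928% of counts in these 5 libraries, and 1 was above both WT libraries in every Hes1 KO library. Erythroid markers (10, led by Hbb-bs and Hbb-bt) took 42.6% of WT replicate 3 and at most 0.321% of the other libraries, in Hes1 KO replicate 3. WT replicate 1, on its few counts, did not side with the other WT libraries in every list. Its macrophage and monocyte share, 1.08%, was nearer the Hes1 KO libraries. Its neutrophil share, 0.984%, lay between those of the other WT libraries. Its stromal (0.0952%) and T and NK cell (0.0831%) shares were the highest of the 6 libraries, and its B cell share (0.0272%) the lowest. The part of these cell types in the results on proteasome genes was not tested, and in such bulk samples fewer cells of a type and less RNA per cell cannot be told apart.

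The stretches of 150 bases before the transcription start of the catalytic subunit genes Psmb5, Psmb6, Psmb8, Psmb9 and Psmb10 are shown first. The results turn on whether the induced and the constitutive subunits moved apart. The stretches come from RefSeq on GRCm38.p6, and no position on the build of the counts (GRCm39) was used. A promoter was held there for 41 of the 49 members but not for the constitutive Psmb7, so that set is not complete here. Capitals mark a match, on either strand, to the interferon gamma activation site (GAS, TTCNNNGAA), the interferon-stimulated response element (ISRE, the letters GAAA, any 2 bases and GAAA), the antioxidant response element (ARE, TGACNNNGC) or the CCAAT box (CCAAT), searched in the 250 bases before the start. Sequences run 5′ to 3′ toward the gene.
Psmb5, chr14:54617996-54618145, minus strand: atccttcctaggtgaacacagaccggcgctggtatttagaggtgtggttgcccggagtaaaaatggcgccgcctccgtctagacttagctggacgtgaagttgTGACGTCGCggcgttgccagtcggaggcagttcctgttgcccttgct
Psmb6, chr11:70525207-70525356, plus strand: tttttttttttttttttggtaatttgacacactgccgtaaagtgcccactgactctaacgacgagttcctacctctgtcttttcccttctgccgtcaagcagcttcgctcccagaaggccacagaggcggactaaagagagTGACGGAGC
Psmb8, chr17:34198045-34198194, plus strand: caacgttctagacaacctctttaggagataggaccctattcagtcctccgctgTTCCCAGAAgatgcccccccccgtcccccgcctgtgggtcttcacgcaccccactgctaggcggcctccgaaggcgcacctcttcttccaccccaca
Psmb9, chr17:34187331-34187480, minus strand: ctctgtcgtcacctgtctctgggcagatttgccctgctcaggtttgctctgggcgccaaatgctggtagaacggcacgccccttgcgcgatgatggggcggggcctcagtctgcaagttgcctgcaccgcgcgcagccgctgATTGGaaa
Psmb10, chr8:105938393-105938542, minus strand: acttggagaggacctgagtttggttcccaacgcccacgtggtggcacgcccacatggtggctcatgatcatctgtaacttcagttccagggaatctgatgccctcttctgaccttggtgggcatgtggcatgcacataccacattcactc
The ARE letters stood at bases -47 to -39 of Psmb5 and -9 to -1 of Psmb6, and the GAS letters at bases -97 to -89 of Psmb8. The match in Psmb9 is the CCAAT box read on the other strand, at bases -8 to -4, and none of the 4 motifs was found for Psmb10. Of 32851 promoters of this length, 7.02% held the GAS letters, 2.98% the ISRE, 10.2% the ARE and 33.9% the CCAAT box. Of the 41 members with a promoter, the GAS letters were found in 2 (Psmb8 and Psmg1), the ISRE in 3 (Psmb3, Psmd4 and Psmd9), the ARE in 5 (Psmb5, Psmb6, Psmc6, Psmd12 and Psmd9) and the CCAAT box in 14. No overlap of 2 motifs occurred in the stretches shown. Psmb9 and Tap1, a subunit of the peptide transporter, are divergent neighbours whose 300-base windows share 275 bases. Psmb8 lies between Tap1 and Tap2 in the RefSeq gene order on chromosome 17.

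Most members were more abundant in Hes1 KO than in either WT library. The 35 subunits of the core, ATPase ring, base and lid summed to 3679, 3884 and 3392 normalised CPM in Hes1 KO, to 1552 in WT replicate 2 and to 2625 in WT replicate 3. The mean of Hes1 KO (3652 ± 248 SD, n = 3) was 2.35-fold that of WT replicate 2 and 1.39-fold that of WT replicate 3. Of the 48 members tested, all 3 Hes1 KO libraries lay above both WT libraries for 38 and below both for 2, and for all genes tested these shares were 31.2% and 24.5%. The median log2 fold change of the members was 0.89, against 0.02 for all 16190 genes. Psmb11, the catalytic subunit of the thymus, was the member under the filter on low counts, with 1, 1 and 0 counts in Hes1 KO against 1 and 0 in WT replicates 2 and 3.

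**Figure D1:**
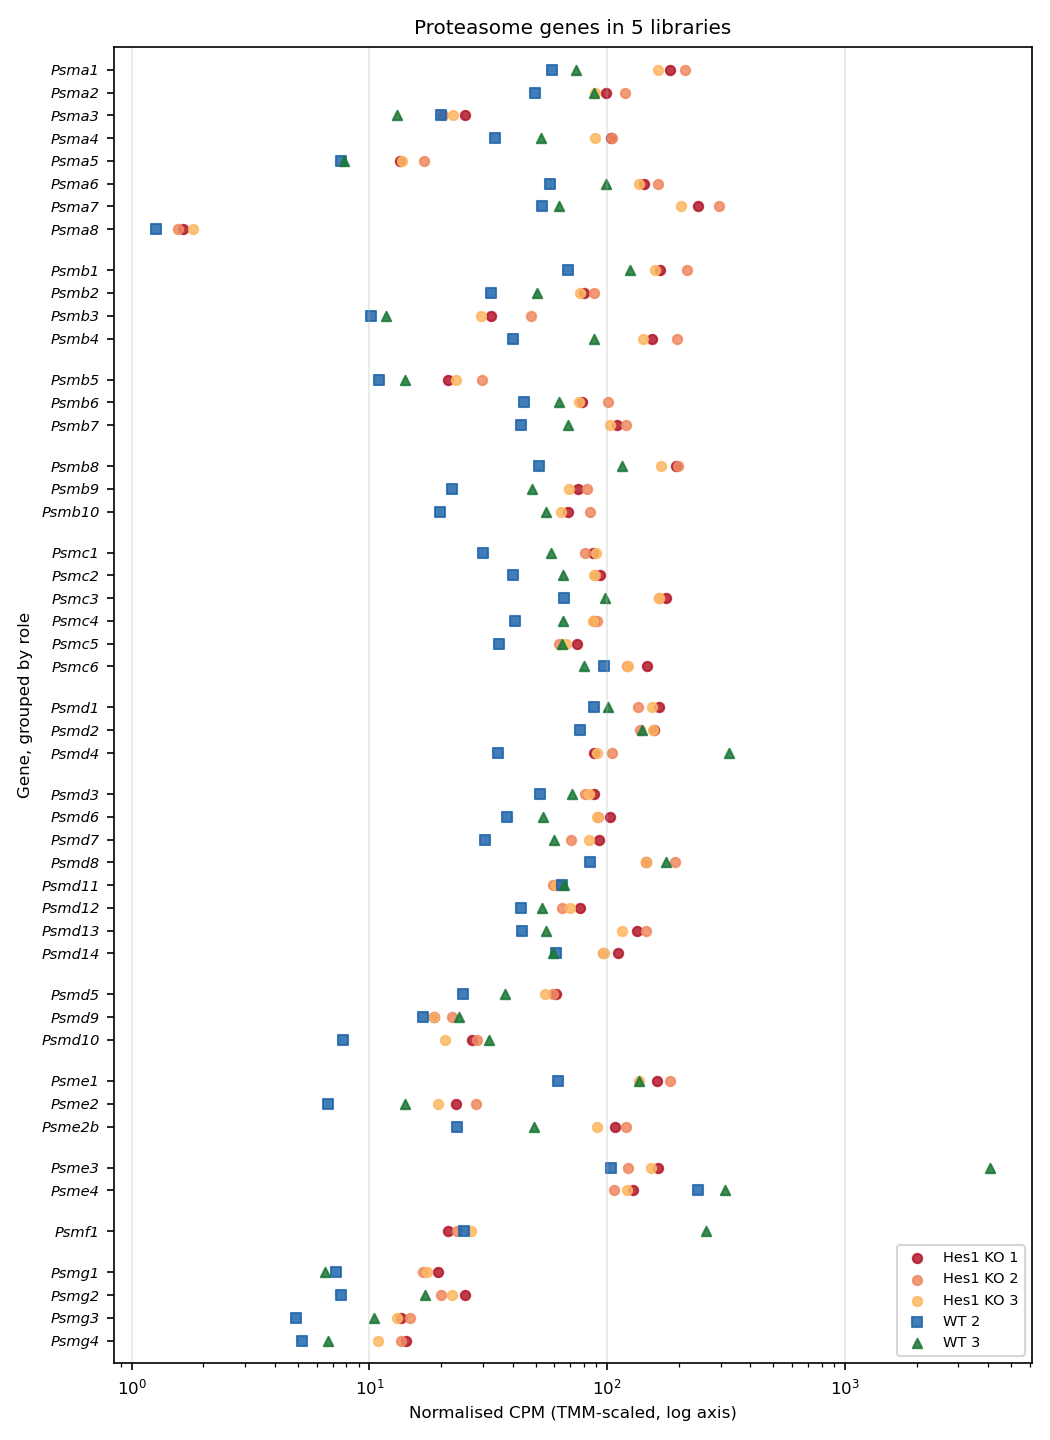
Normalised CPM (log axis) of the 48 tested proteasome genes, grouped by role, with circles for the 3 Hes1 KO libraries, squares for WT replicate 2 and triangles for WT replicate 3 (Psma8 is at 0 in WT replicate 3 and has no triangle). Circles lie to the right of both WT symbols for 38 genes, and the triangle of Psme3 stands at 4084.

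The single-gene test gave fewer differences than the levels. In the 5-library fit 10 of 48 members passed an adjusted p of 0.05, 9 higher and 1 lower in Hes1 KO (edgeR quasi-likelihood test). Of all genes, 15.5% passed, 7.44% higher and 8.09% lower, against 20.8%, 18.8% and 2.08% of the members. Unadjusted p were under 0.05 for 33 members and for 39.8% of all genes. DESeq2 called 19 members higher and 3 lower, beside 12.7% and 18.2% of all genes (30.9% in all). These calls rested on the libraries used: with all 6 libraries 0 of 48 members and 0% of 14756 genes passed (8 members and 14.9% of all genes had an unadjusted p under 0.05), and leaving out any 1 of the 3 Hes1 KO libraries also gave 0. With all 6 libraries the sign turned for Psma5 (-0.38), Psme2 (-0.97), Psmg3 (-0.47) and Psmd11 (0.33), and WT replicate 1 had 6, 15, 6 and 0 counts of these genes. Without WT replicate 3, 41 members passed, 40 of them higher, beside 35.5% of all genes (17.1% higher, 18.4% lower). Without WT replicate 2, 15 passed, 11 higher and 4 lower, beside 29% of all genes (14.6% higher, 14.3% lower). In both of these fits WT is 1 library, which is assumed to vary like the others. A term for the sex of the animals, read from Y transcripts against Xist, gave 0 calls, with a median of 0.92 for the members. Of 5 sex chromosome genes (Xist and genes of the Y), 4 were lower in every Hes1 KO library than in both WT libraries. Over all genes tested that share was 24.5%. Together they took 0.0213% to 0.123% of counts in Hes1 KO, against 0.0505% and 0.0210% in WT replicates 2 and 3. This sum joins Xist with genes of the Y, so it does not tell the sex of a library. Sex may differ between the groups, and its part cannot be fully told apart from that of the genotype.

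**Figure D2:**
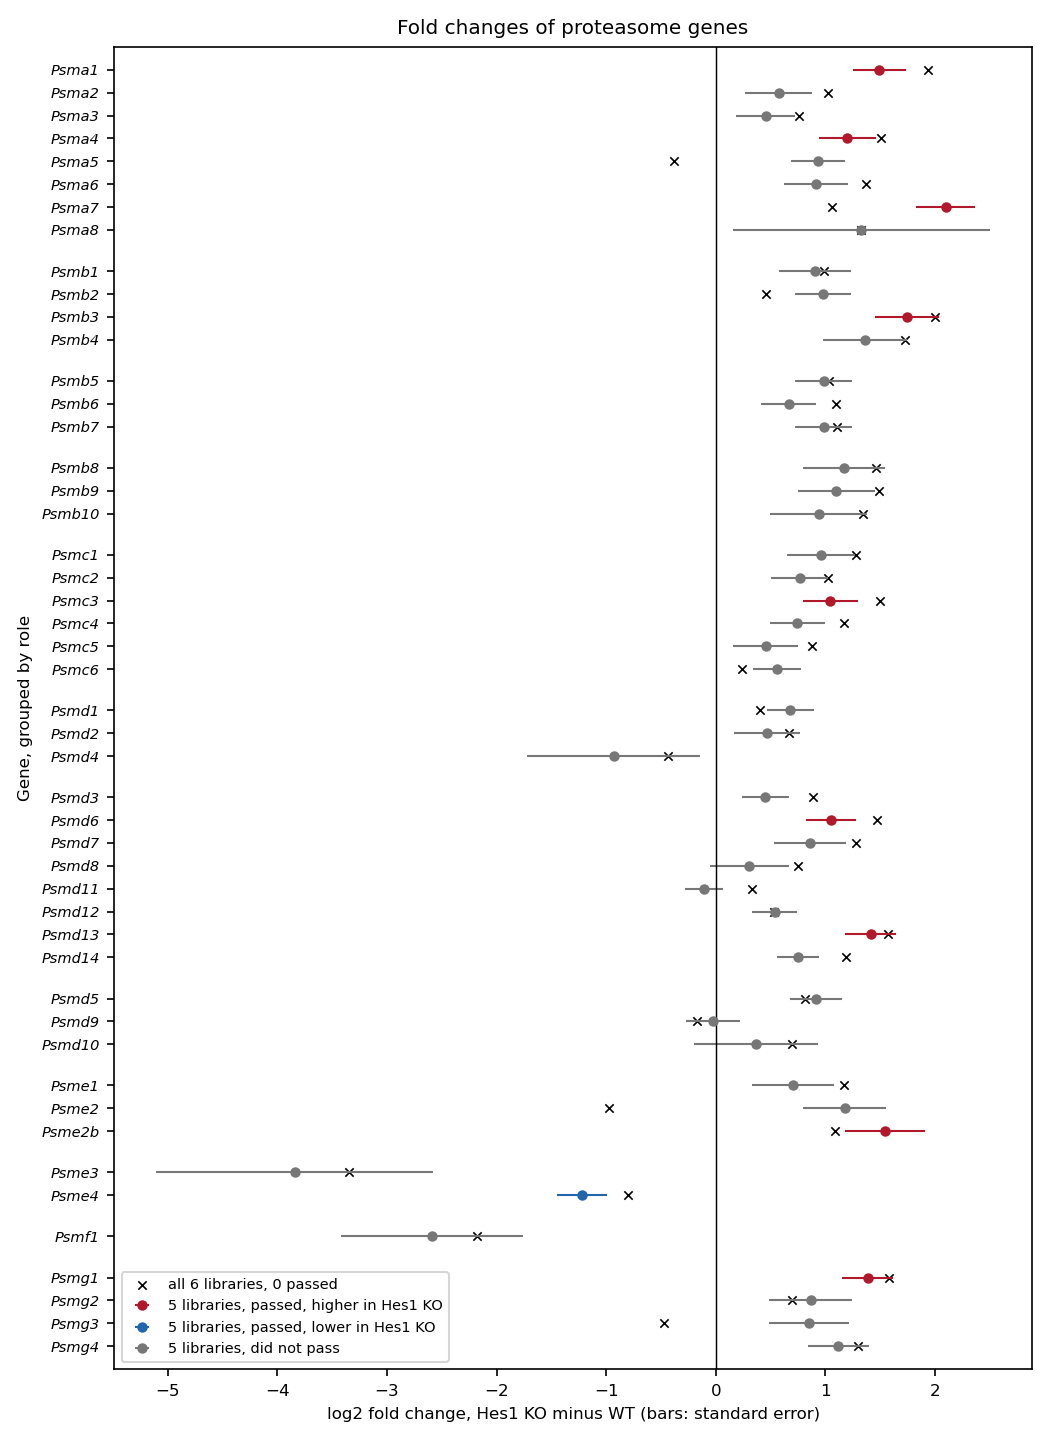
Log2 fold change of each tested proteasome gene (Hes1 KO minus WT) with its standard error in the 5-library fit, and crosses for the fit of all 6 libraries. Points to the right of 0 are higher in Hes1 KO; 9 passed to the right and Psme4 to the left, and none of the crosses passed.

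The contrast between constitutive and induced catalytic subunits did not separate the groups. Psmb5, Psmb6 and Psmb7 together were at 209, 249.6 and 202 normalised CPM in Hes1 KO and at 99 and 145 in WT replicates 2 and 3. Psmb8, Psmb9 and Psmb10 together were at 338, 366 and 301 in Hes1 KO and at 93.8 and 218 in WT. Both sums were lower in each WT library than in every Hes1 KO library. The ratio of induced to constitutive counts was 1.62, 1.47 and 1.49 in Hes1 KO (exact binomial 95% intervals 1.56 to 1.67, 1.42 to 1.52 and 1.44 to 1.54). It was 0.948 in WT replicate 2 (0.856 to 1.05) and 1.5 in WT replicate 3 (1.37 to 1.65). WT replicate 3 thus lay among the Hes1 KO libraries and WT replicate 2 below them. WT replicate 1, with 3 induced and 5 constitutive counts, had a ratio of 0.60 with an interval of 0.0932 to 3.08, which covers all the others. On the log2 scale the mean ratio was 0.61 ± 0.08 (SD, n = 3) in Hes1 KO and 0.26 ± 0.47 (SD, n = 2) in WT, and the difference of 0.35 was smaller than the spread of the WT pair. Without WT replicate 2 that difference was 0.017, and without WT replicate 3 it was 0.68. Intervals cover counting error only. A ratio within a library does not depend on scaling between libraries, and since transcript lengths differ it is read only from library to library.

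The same ratio was then taken for each of the 3 pairs of exchangeable subunits, with no test between pairs. Psmb9 over Psmb6, the pair that cuts after acidic residues in its constitutive form, was at 0.957, 0.819 and 0.907 in Hes1 KO and at 0.50 and 0.769 in WT replicates 2 and 3, so the groups did not overlap. The interval of WT replicate 3 (0.651 to 0.906) nevertheless covered the value of Hes1 KO replicate 2. Psmb8 over Psmb5 was at 9.10, 6.67 and 7.26 in Hes1 KO and at 4.70 and 8.13 in WT, and Psmb10 over Psmb7 at 0.625, 0.706 and 0.617 and at 0.456 and 0.810. In these 2 pairs the groups overlapped. In each of the 3 pairs WT replicate 2 had the lowest ratio, and in the Psmb10 pair WT replicate 3 had the highest.

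**Figure D3:**
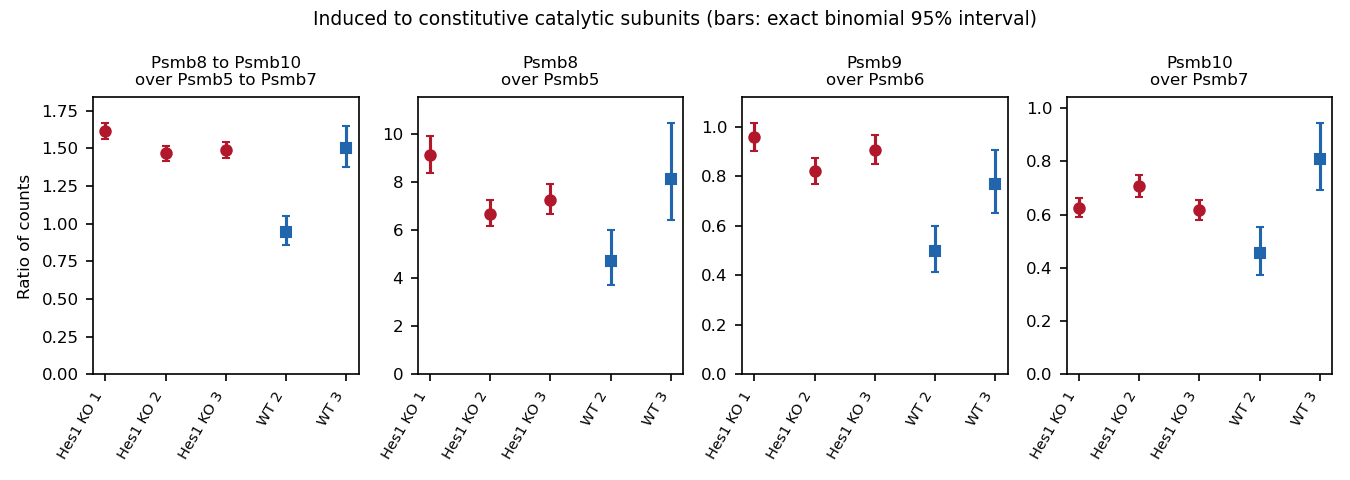
Ratio of counts of induced to constitutive catalytic subunits by library, for the 3 genes of each kind together and for each pair, with exact binomial 95% intervals (circles Hes1 KO, squares WT replicates 2 and 3). WT replicate 2 is the lowest point in each panel, while WT replicate 3, at 1.5 in the first panel, lies among the Hes1 KO libraries in that panel.

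None of the 6 exchangeable subunits passed the test. Psmb8 was at 195, 199 and 168 normalised CPM in Hes1 KO and at 51.7 and 115 in WT replicates 2 and 3, a log2 fold change of 1.17 (SE 0.37; edgeR adjusted p = 0.0805). Psmb9 was at 75.2, 82.2 and 68.8 against 22.3 and 48.1 (log2 fold change 1.1). Psmb10 was at 68.3, 84.3 and 63.6 against 19.9 and 55.4 (0.94). All 3 had every Hes1 KO library above both WT libraries. Psmb7 was at 109, 119 and 103 against 43.5 and 68.4, a log2 fold change of 0.98 (SE 0.26; edgeR adjusted p = 0.0566). Psmb5 was at 21.4, 29.9 and 23.2 against 11 and 14.1 (0.98), and Psmb6 at 78.5, 100.4 and 75.9 against 44.5 and 62.7 (0.66). The adjusted p of Psmb5, Psmb6, Psmb9 and Psmb10 were 0.0569, 0.111, 0.0818 and 0.171 (edgeR). The fold changes were thus 0.94 to 1.17 for the induced genes (SE 0.35 to 0.44) and 0.66 to 0.98 for the constitutive genes (SE 0.25 to 0.26), and their difference was not tested. With all 6 libraries the 6 values were 1.03 to 1.49, and the smallest adjusted p was 0.31 (edgeR). Without WT replicate 3 all 6 passed, with 1.80 to 1.90 for the induced and 0.97 to 1.39 for the constitutive genes. Without WT replicate 2 none passed, with 0.39 to 0.71 and 0.44 to 0.82.

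The alpha ring, which gates the barrel, summed to 811, 936 and 717 normalised CPM in Hes1 KO, against 281 and 397 in WT replicates 2 and 3. Of its 8 genes 3 rose. Counts of Psma7 were 6734, 6603 and 5183 in the Hes1 KO libraries, 420 in WT replicate 2 and 336 in WT replicate 3, or 241, 296 and 204 against 53.1 and 62.5 normalised CPM. Its log2 fold change of 2.10 (SE 0.27; edgeR adjusted p = 0.0294) was the highest of all members. WT replicate 1 had 28 counts of Psma7, the most of any member there, and with all 6 libraries the value was 1.06. Psma1 rose by 1.49, from 58.7 and 74.0 in WT to 163 to 213 in Hes1 KO, and Psma4 by 1.20, from 33.8 and 52.6 to 88.6 to 105. Psma2, Psma3, Psma5 and Psma6 had log2 fold changes of 0.45 to 0.93 without passing. In Psma2 the lowest Hes1 KO library, at 88.8, was hardly above WT replicate 3 at 87.9. Psma8, the alpha subunit of the testis, had 46, 35 and 46 counts in Hes1 KO against 10 and 0 in WT.

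Among the non-catalytic beta subunits Psmb3 rose by 1.74 (SE 0.30; edgeR adjusted p = 0.0305). It was at 32.3, 48.0 and 29.3 normalised CPM in Hes1 KO and at 10.1 and 11.7 in WT. Psmb1, Psmb2 and Psmb4 had log2 fold changes of 0.90, 0.97 and 1.36 and did not pass. The most abundant of these, Psmb1, was at 166, 216 and 159.5 against 68.5 and 125. All 4 were above both WT libraries in every Hes1 KO library.

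The ATPase ring, 6 unlike subunits that unfold the substrate, varied least among the Hes1 KO libraries by the median of its genes. Its sum was 666, 607 and 618 normalised CPM in Hes1 KO against 309 and 429.8 in WT, and the median coefficient of variation of its genes among Hes1 KO libraries was 4.82%, against 10.2% over all members and 18.1% over all genes tested. Psmc3 rose by 1.04 (SE 0.25; edgeR adjusted p = 0.0467), with 176, 165 and 165 against 66 and 97.4. The 5 others had 0.46 to 0.96 and did not pass, and for Psmc5 WT replicate 3, at 64.3, lay between Hes1 KO libraries at 62.9 and 67.0. In Psmc6 the order of the WT libraries was turned, with 96.5 in WT replicate 2 and 79.8 in WT replicate 3.

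The lid, whose Psmd14 removes the ubiquitin chain, held 8 members, of which 2 rose. Psmd13 was at 133, 146 and 115 normalised CPM in Hes1 KO and at 43.6 and 55.2 in WT, a rise of 1.41 (SE 0.23; edgeR adjusted p = 0.0303). Psmd6 rose by 1.05, with 90.8 to 102 against 37.9 and 53.7. Psmd14 was at 110.5, 95.6 and 96.9 against 61.1 and 59.1 (0.75, adjusted p = 0.0533 by edgeR). Psmd11 did not share the higher level: it was at 61.7, 58.9 and 60.6 in Hes1 KO and at 64.5 and 65.6 in WT (log2 fold change -0.11). Psmd8, the most abundant, was at 146, 194 and 145 against 84.6 and 177, and its log2 fold change of 0.31 became -0.12 without WT replicate 2. Psmd3, Psmd7 and Psmd12 had 0.45 to 0.86 and did not pass.

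Of the 3 members in the base that are no ATPases, Psmd1 and Psmd2, scaffolds for ubiquitin shuttles, had log2 fold changes of 0.68 and 0.47 and did not pass. The third, Psmd4, a ubiquitin receptor named here after its values were seen, was at 88.0, 104 and 90.6 normalised CPM in Hes1 KO, at 34.6 in WT replicate 2 and at 325 in WT replicate 3. The 2 WT libraries thus lay on opposite sides of the Hes1 KO libraries. Its log2 fold change was -0.93 in the 5-library fit, 1.48 without WT replicate 3 and -1.78 without WT replicate 2, and it was 0.21 with library size alone.

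Psme3, Psmf1 and Psmd4 set WT replicate 3 apart. Psme3, the nuclear activator subunit PA28 gamma, had 4549, 2736 and 3879 counts in Hes1 KO, 821 in WT replicate 2 and 21967 in WT replicate 3. This made 163, 123 and 152 normalised CPM in Hes1 KO, 104 in WT replicate 2 and 4084 in WT replicate 3. Psme3 alone accounted for most of the members' total there: all 49 members summed to 7614 normalised CPM in WT replicate 3 and 4095 to 4644 in Hes1 KO, and without Psme3 to 3530 and 3943 to 4521. In WT replicate 2 these sums were 2089 and 1985. The log2 fold change of Psme3 was -3.84 (SE 1.27; edgeR adjusted p = 0.0851), and without WT replicate 3 it was 0.53. Psmf1, the proteasome inhibitor PI31, was at 21.3, 23.2 and 26.7 in Hes1 KO, at 25 in WT replicate 2 and at 261 in WT replicate 3. Its log2 fold change of -2.59 (adjusted p = 0.0813 by edgeR) was -0.04 without WT replicate 3 and -3.45 without WT replicate 2, where it passed. The level in WT replicate 3 was 25.1-fold the highest of the 4 other libraries for Psme3, 9.77-fold for Psmf1 and 3.12-fold for Psmd4. These genes ranked 104th, 217th and 626th of 16190 by that measure, on which the beta-globin gene Hbb-bs ranked 3rd. WT replicate 3 was also the library in which erythroid markers took 42.6% of counts, and the part of erythroid cells in these values was not tested.

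Psme4, the large nuclear activator PA200, was the 1 member that fell. It was at 128, 107 and 121 normalised CPM in Hes1 KO and at 242 and 311 in WT replicates 2 and 3, so the WT libraries were the high ones and the groups did not overlap. Its log2 fold change was -1.22 (SE 0.23; edgeR adjusted p = 0.033). With library size alone its log2 fold change was -0.73 and did not pass. Without TMM factors its CPM were 112 to 161 in Hes1 KO against 329 and 138 in WT, and the groups overlapped. Psme4 had 4 counts in WT replicate 1, and with all 6 libraries its log2 fold change was -0.80.

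**Figure D4:**
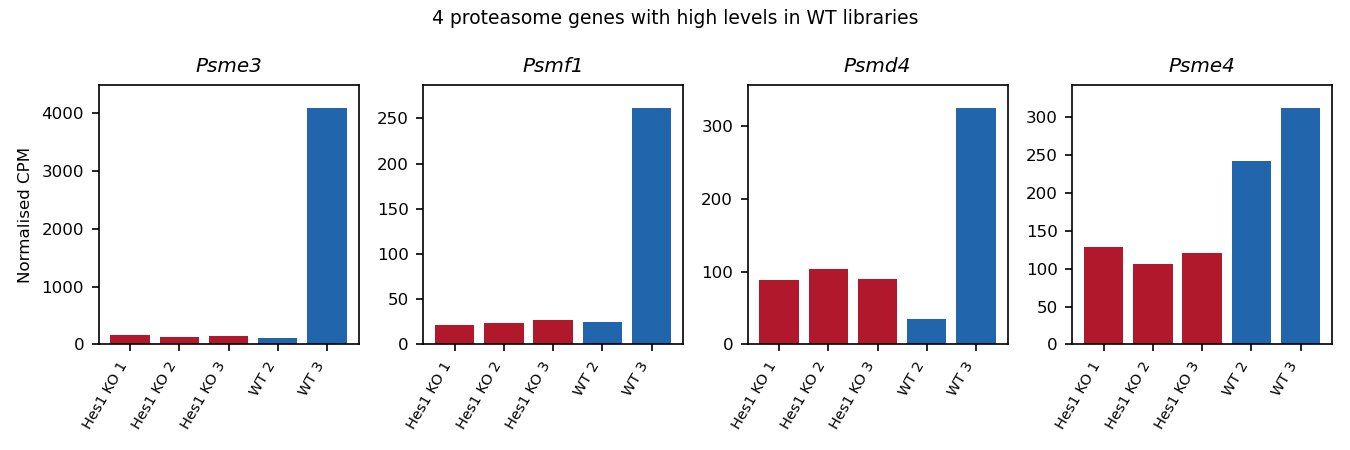
Normalised CPM of Psme3, Psmf1, Psmd4 and Psme4 in the 3 Hes1 KO libraries and WT replicates 2 and 3, as 1 bar a library, each panel on its own axis from 0. Psme3, Psmf1 and Psmd4 are high in WT replicate 3 only, and Psme4 is high in both WT libraries.

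Of the 3 PA28 genes of the immune type, 1 rose. Psme1 was at 162, 184 and 135.7 normalised CPM in Hes1 KO and at 61.8 and 135.5 in WT replicates 2 and 3 (log2 fold change 0.70, not passed), so that WT replicate 3 lay just under the lowest Hes1 KO library. Psme2 and Psme2b share 794 bases at 99.4% identity (GENCODE vM21 transcripts), so their reads could be split between them and neither count is certain. Together they were at 131, 148 and 109.6 in Hes1 KO and at 30.1 and 63.4 in WT, where no overlap of the groups was seen. Psme2b alone rose by 1.54 (SE 0.36; edgeR adjusted p = 0.0464), and Psme2 had 1.18 without passing. WT replicate 1 had 24 counts of the pair and 0 of Psme1. The ratio of the 3 immune-type genes to Psme4 was 2.29, 3.12 and 2.03 in Hes1 KO against 0.38 and 0.639 in WT replicates 2 and 3. This pair of gene sets was chosen after its values were seen. In WT replicate 1, with 24 counts against 4, the ratio was 6.00 (exact binomial 95% interval 2.06 to 23.8), on the side of Hes1 KO.

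Of the 4 core assembly chaperones, which pair the alpha subunits, Psmg1 rose by 1.39 (SE 0.23; edgeR adjusted p = 0.0304), with 19.5, 16.8 and 17.5 normalised CPM in Hes1 KO against 7.21 and 6.51 in WT. Psmg2, Psmg3 and Psmg4 had log2 fold changes of 0.85 to 1.12 and did not pass, and all 4 genes kept the groups apart. Of the chaperones of the base, Psmd5 was at 55.0 to 60.6 against 24.8 and 37.0 (0.91, adjusted p = 0.0558 by edgeR), while Psmd9 (-0.03) and Psmd10 (0.36) overlapped between the groups. Psmd10 was highest in WT replicate 3 (31.8) and lowest in WT replicate 2 (7.71) in normalised CPM.

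The order of the WT libraries depended on scaling. In normalised CPM WT replicate 3 was above WT replicate 2 for 43 of 48 members (89.6%, against 48.2% of all genes), with a median ratio of 1.57. On CPM without TMM factors this held for 4 members, Psmd4, Psmd10, Psme3 and Psmf1 (8.33%, against 9.81% of all genes), with a median ratio of 0.513 for the members and 0.319 for all genes. In normalised CPM the 3 induced subunits were 2.16- to 2.79-fold higher in WT replicate 3, the 3 constitutive ones 1.28- to 1.57-fold, and the alpha ring genes had a median of 1.22-fold. Psma3, Psma8, Psmc6, Psmd14 and Psmg1 had the opposite order on that scale.

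Levels were compared between subunits per kilobase of the longest coding transcript (GENCODE vM21). In Hes1 KO, Psma7 was the highest alpha subunit with 208, 256 and 176 normalised CPM per kilobase, and Psma3 and Psma5 the lowest apart from Psma8, with 7.14 to 8.84 and 10.9 to 13.7. Among the catalytic subunits Psmb8 was at 119.8, 122 and 103, Psmb9 at 55.6, 60.8 and 50.9, Psmb10 at 52.1, 64.3 and 48.5, Psmb6 at 98.4, 126 and 95.1, Psmb7 at 94.3, 103 and 88.9, and Psmb5 at 23.8, 33.2 and 25.8. On this scale Psmb8 and the constitutive Psmb6 and Psmb7 were near each other, and Psmb5 was the lowest of the 6. Of the 49 members, 15 share at least 200 bases at 95% identity or more with a transcript of another gene, and for 9 of them the match covers at least 50% of the transcript. Psmb5 is one of these, with 98.9% identity over 88.5% of its transcript to Gm3375, and Psma5 another, with 98.6% over 76.8% to Gm8394. Psma4 and Psmb3, which passed, are also among them. Psma4 has 96.8% identity over 67.2% to Gm6542, and Psmb3 97.1% over 80.7% to AC114990.1. Psma3 shares 772 bases at 96.5% with Gm4742, which is 27.1% of its longest transcript of 2846 bases. Reads that match both may have been left out or split, depending on counting settings that no source used here gives. Levels of such genes, the low ones above all, are therefore uncertain, as are the calls of Psma4 and Psmb3. Psmb9 shares 212 bases with Tap1, Psmb7 shares 255 with Nek6 and Psmd13 shares 329 with Sirt3, and without the strand setting such reads cannot be told apart.

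The pathway around the proteasome was then examined in 60 further genes, of which 5 rose and 1 fell (8.33% and 1.67%, against 7.44% and 8.09% of all genes). Of 15 other proteasome components and cofactors 3 rose. Sem1, the smallest lid subunit, was at 231, 398 and 234 normalised CPM in Hes1 KO and at 29.7 and 77.7 in WT replicates 2 and 3, a rise of 2.42 (SE 0.52; edgeR adjusted p = 0.0406). Pomp, the maturation factor of the core, rose by 1.66, with 117 to 157 against 32.0 and 54.8, and Uchl5, a deubiquitinase of the cap, by 1.41. Of 13 ubiquitin and p97 genes none passed, and the 2 with the smallest p were Ubb, a polyubiquitin gene, and Rps27a. Ubb was at 511 to 797 in Hes1 KO, 296 in WT replicate 2 and 8449 in WT replicate 3. Of 8 genes that control proteasome transcription, 5 had a log2 fold change above 0 and 3 below. Mafk, a small Maf partner of the Nrf factors, fell by 1.75. Nfe2l1, the Nrf1 gene that drives proteasome genes when activity is low, had a log2 fold change of 0.20. Its relative Nfe2l2 had 0.79 and did not pass. For Nfe2l2 every Hes1 KO library was above both WT libraries, with and without TMM factors.

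Genes of interferon gamma signalling and of class I loading each had 1 call (7.69% and 9.09%, against 15.5% of all genes). Of 13 interferon gamma genes, with a median of -0.07, 1 passed: the receptor chain Ifngr1 rose by 1.22, with 163, 179.8 and 163 normalised CPM in Hes1 KO against 80.8 and 64.3 in WT. Irf1, an interferon-induced activator of Psmb9, was at 75.4, 98.6 and 77.7 normalised CPM in Hes1 KO and at 149 in WT replicate 2, and in WT replicate 3 it was just above the highest Hes1 KO library (log2 fold change -0.57, not passed). Without TMM factors the CPM of Irf1 in WT replicate 3, 44.4, was under the 95.1 to 104 of Hes1 KO. Ifng, with 3 to 20 counts a library, was at 0.394, 0.628 and 0.275 normalised CPM in Hes1 KO, at 0.379 in WT replicate 2 and at 3.72 in WT replicate 3 (log2 fold change -2.21, not passed). Of 11 class I loading genes, with a median of 0.47, Pdia3, a thiol oxidoreductase of the loading complex, rose by 1.42. With all 6 libraries the median of these 11 genes was -0.15, with 3 of them above 0 in place of 10, and Tap1 was at -0.19, Tap2 at 0.01, B2m at -0.22 and Pdia3 at 0.75 on the log2 fold change scale. Tap1, the neighbour of Psmb9, was at 148, 137 and 131 against 78.4 and 122 (log2 fold change 0.47), and Tap2 at 82.2 to 94.1 against 53.5 and 71.9 (0.46). B2m, the light chain of class I molecules, was at 1004 to 1288 against 448 and 1178. In Psmb8, Psmb9, Psmb10, Tap1, Tap2 and B2m WT replicate 2 was the lowest of the 5 libraries in normalised CPM, while WT replicate 3 was the lowest for all 6 on CPM without TMM factors (Psmb8 51.0 against 70.4 in WT replicate 2, B2m 523 against 609.9). WT replicate 1 held 31 counts of Tap1, 15 of Tap2 and 266 of B2m beside 3, 0 and 0 of Psmb8, Psmb9 and Psmb10.

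The members' median stood above that of all genes under each of the 22 alternatives to the 5-library fit, by 0.46 (without WT replicate 2) to 1.25 (without WT replicate 3) on the log2 scale. Of these alternatives, the threshold of 0.01 and robust estimates of spread leave the medians as they are. Leaving globin genes out before TMM hardly moves them. Scaling moved both medians together: with library size alone they were 1.45 and 0.44, and with upper quartile scaling 0.68 and -0.19. The groups were non-overlapping and higher in Hes1 KO for 40 members on CPM without TMM factors, beside 35.1% of all genes, and lower for 1, Psmf1, beside 7.54%.

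**Figure D5:**
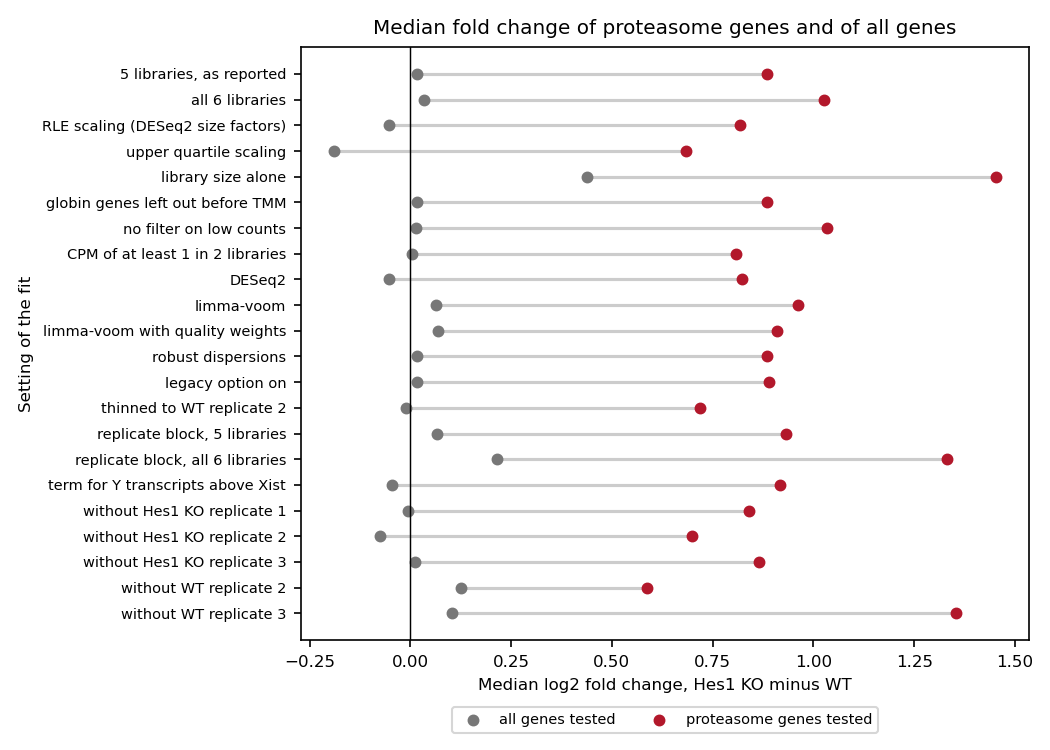
Median log2 fold change (Hes1 KO minus WT) of the tested proteasome genes and of all genes tested, for the 5-library fit and each alternative fit. The proteasome median is the right-hand point in every row, and the gap is smallest without WT replicate 2 (0.46) and largest without WT replicate 3 (1.25).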

How the data were processed

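Whole-number read counts per gene symbol were used as deposited by the authors, with featureCounts named in the deposited table's title. The genome build GRCm39, edgeR and limma are named per the submitters' processing notes. Aligner, annotation and strand setting: not given in the sources used here. Groups and replicate numbers came from the sample titles.

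Counts were tested with edgeR 4.0.16 (R 4.3.3): filterByExpr left 16190 of 26988 genes, scaling used TMM, and the 2 groups were compared in the quasi-likelihood test (legacy option off), with Benjamini-Hochberg adjustment over all genes and a threshold of 0.05. TMM factors were 1.05 to 1.26 in Hes1 KO, 1.37 in WT replicate 2 and 0.445 in WT replicate 3. Standard errors were derived from the log2 fold change and its F statistic. The fit of all 6 libraries had 14756 genes. Alternatives were other scalings, filters, thresholds and tools (DESeq2 1.42.0, limma-voom of limma 3.58.1), thinning, a replicate block, a sex term and leaving out libraries. The fit was tested on simulated data, on which, at the spread of these libraries, it missed most of the genes given the smaller change, and more so with all 6 libraries: a gene that did not pass is not shown to be unchanged.

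Members and gene lists were chosen with earlier results of these data known, as was the choice to keep WT replicate 1 apart. Named were Hes1, the 6 exchangeable subunits, members that passed, in each role the smallest p and the most abundant, up to 4 passing genes of each pathway list or the 2 smallest p, and the 2 leading markers of a list. Other members, the relatives of named pathway genes and genes that stood apart in 1 library were named after their values were seen. Paaf1 of the pathway lists had no row in the table. Some pathway genes are counted in their lists but not reported here by name. Depth sets precision: 1 count was worth 0.0452 to 0.172 CPM in the 5 libraries and 15.1 in WT replicate 1. Exact binomial intervals are at 95%.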

Additional observations from a re-analysis of the deposited data

How the results depend on the processing

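Of the genes that passed in the 5-library fit (2513, of which 1204 higher and 1309 lower), the members (10) and the pathway genes (6), none passed with library size alone, with all 6 libraries, with limma-voom and quality weights, at a threshold of 0.01, with the replicate block in 5 or in all 6 libraries, or with the term for Y transcripts (0 for all 3 counts). Where 0 members passed, 4 to 33 of 48 had an unadjusted p under 0.05. The 33 were those of the 5-library fit at the threshold of 0.01, beside 6442 of 16190 genes. With the replicate block they were 7 members beside 2770 of 16190 genes in 5 libraries, and 4 members beside 900 of 14756 genes in all 6. DESeq2 called 4997 genes, 22 members (19 higher, 3 lower) and 12 pathway genes, and limma-voom called 1440 genes. Upper quartile scaling left 6 of 48 members, beside 803 genes higher and 1790 lower of 16190. The share of members that passed was there below that of all genes, unlike in the 5-library fit. The legacy option also left 6 members, and unadjusted p were under 0.05 for 31 of 48 members and 6119 of 16190 genes. RLE scaling turned the split of all calls to 998 higher and 1432 lower, no filter to 1066 and 847. Leaving out 1 library gave 0 to 6210 genes, 0 to 41 members and 0 to 19 pathway genes, with 0 without any 1 Hes1 KO library and the highest without WT replicate 3. Without WT replicate 2 the counts were 4809, 15 and 15. The ratio of induced to constitutive subunits differed by 0.02 to 0.68 (log2) with 1 library left out, and by 0.31 within replicate numbers 2 and 3 (the replicate block). Among the members followed through every setting (those named by rule and Psmd4), reversed signs were those of Psmd4 with the replicate block in all 6 libraries (1.20) and without WT replicate 3 (1.48) and with library size alone (0.21), of Psmd8 without WT replicate 2 (-0.12) and of Psme3 without WT replicate 3 (0.53). With 1 library left out Psmd4 ranged from -1.78 to 1.48, Psmd8 from -0.12 to 0.97 and Psme3 from -4.80 to 0.53. Of the other members, Psma5, Psme2, Psmg3 and Psmd11 turned sign with all 6 libraries, as did Tap1 and B2m of the pathway genes named. The cause of these changes was not tested. Same-numbered libraries did not deviate together throughout (correlations across genes of deviations from the group means of 0.15, -0.01 and 0.29 for numbers 1, 2 and 3). The values for numbers 1 and 3 were nevertheless above all those between unlike numbers. The highest of the latter was 0.04 (Hes1 KO replicate 2 with WT replicate 1). Pairing by number is thus not excluded. The 5-library fit left the numbers unpaired, and the fits with the replicate block are given above. The depth of WT replicate 1 limits what it can show, since 43 of 49 members had fewer than 10 counts there.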
